A study of Mus musculus with 14 samples.

Results

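Qk encodes the RNA-binding protein quaking. Claudin and tight junction genes were followed in mouse brain tissue and in glial cultures labelled Qk-KO or WT. They were Cldn1, Cldn2, Cldn5, Cldn10, Cldn11, Cldn12, Cldn14, Ocln and Tjp1. They are 9 genes listed by symbol, with earlier results of these data known, out of 46983 genes in each of the deposited tables, and each symbol matched 1 row in both. RNA was sequenced from corpus callosum of FvB/C57BL6 hybrid mice, 8 weeks old at the tamoxifen injection and sampled 4 days after it. All of these animals carried Plp-CreERT2, a recombinase that tamoxifen activates in cells with an active Plp promoter, which are mainly oligodendrocytes. The 4 animals labelled Qk-KO were QKLoxP/LoxP and the 4 labelled WT were QKLoxP/+, so the controls carry 1 floxed copy and received tamoxifen too. The second system was oligodendrocytes differentiated from neural stem cells of the same strain background at passages 7, 12 and 13, in medium that held B-27, GlutaMAX-I, the growth factor IGF-1 at 100 ng/ml and the thyroid hormone T3 at 50 ng/ml. It has 3 libraries per genotype, and the descriptions name 40HT for each culture labelled Qk-KO and EtOH for each labelled WT, so that agent and genotype cannot be told apart. Each Qk-KO culture shares its passage and the stem of its description with 1 WT culture, so the labels pair the cultures by passage, but the fitted values do not allow a paired test. Nothing in the labels says whether the cultures of a genotype came from separate animals, and their p-values may measure technical spread only.

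Tight junctions seal the space between neighbouring cells. Claudins are membrane proteins with 4 transmembrane segments, and strands of them close or selectively open the path between cells. Occludin, the product of Ocln, sits in the same strands, and ZO-1, the product of Tjp1, ties the strands to actin. In the brain, Cldn5 is the main claudin of the blood-brain barrier endothelium, Cldn1 and Cldn2 are claudins of the choroid plexus epithelium, Cldn11 forms the tight junctions within myelin, and Cldn10 RNA is typical of astrocytes. Quaking binds RNA at a short element and acts on the splicing, stability and translation of glial transcripts.

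The library columns of both tables hold fitted means that differ within a genotype only by library size, so each genotype has 1 level per gene, given here as fitted CPM (fitted counts scaled so that every library has the same total). Totals of fitted counts ran from 15048646 to 27666519 per callosum library and from 38325833 to 48912999 per culture library. Levels carry no replicate spread, and the errors below are the standard errors (SE) of the log2 changes in the authors' deposited table, where a gene is called at an adjusted p under 0.05. Total Qk RNA was not lower in libraries labelled Qk-KO, at 713 against 907 CPM in callosum and 1972 against 3277 CPM in culture (WT first). In the authors' deposited table its log2 change was 0.32 ± 0.12 (adjusted p = 0.162) in callosum and 0.66 ± 0.14 (adjusted p = 4.19e-05) in culture, where it rose. These reads cover the whole gene and do not check the deletion. In tissue labelled WT, 15 mature oligodendrocyte markers summed to 8163 CPM, 9 neuron markers to 6541, 15 astrocyte markers to 5563, 12 choroid plexus markers to 2108, 7 precursor markers to 523 and 11 microglia markers to 446 CPM. In cultures labelled WT, the astrocyte markers summed to 15225 CPM, the mature oligodendrocyte markers to 3150 and the precursor markers to 2915 CPM. Neuron markers summed to 746 CPM there. Cultures labelled as differentiated oligodendrocytes thus held much RNA of the astrocyte list. No list of neural stem cell markers was examined, so the sums do not tell astrocytes apart from remaining stem cells. In bulk RNA of this kind, fewer cells of a type and less RNA per cell cannot be told apart.

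Per kilobase of annotated exon, Cldn11 stood highest of the 9 genes in both systems and both genotypes. In callosum labelled WT its fitted level was 137 CPM per kb, followed by Tjp1 with 19.5, Cldn5 with 18.6, Cldn12 with 12.7 and Cldn10 with 11.3 CPM per kb. Ocln (4.03 CPM per kb), Cldn2 (3.68), Cldn1 (1.55) and Cldn14 (0.684) followed. Libraries labelled Qk-KO had the same order in callosum. In cultures labelled WT the order was Cldn11 with 119, Tjp1 with 43.9, Cldn12 with 24.1 and Cldn10 with 17.6 CPM per kb. Cldn2 (0.364 CPM per kb), Ocln (0.0832), Cldn1 (0.0733) and Cldn14 (0.0306) lay far below these 4 genes. Cldn5 had no reads in any of the 6 culture libraries, which allows a level of up to 0.0783 CPM in the shallowest of them, by a floor of 3 counts per library that covers counting error only. Levels are not set against each other across the systems, because their tables were normalized separately, and which neighbours in an order differ cannot be said without replicate values.

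**Figure D1:**
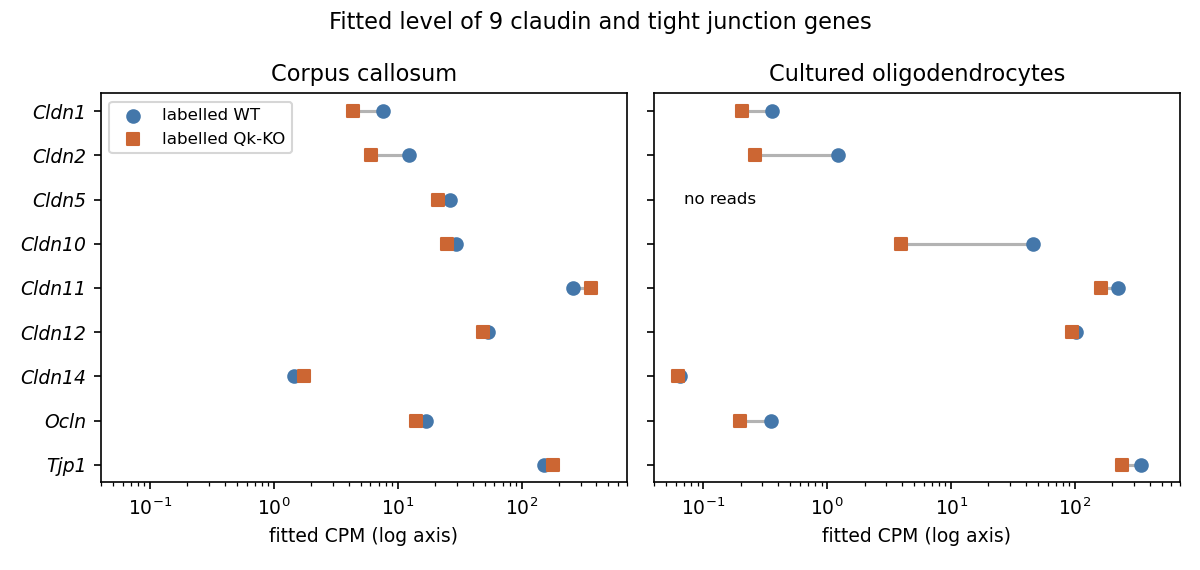
Fitted level in CPM (log axis) of each of the 9 genes in callosum (left) and culture (right), with circles for libraries labelled WT and squares for libraries labelled Qk-KO. Cldn10 in culture has the widest gap, from 45.5 to 3.92 CPM, and Cldn5 has no reads in culture.

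In culture, Cldn10, Cldn2 and Tjp1, or 3 of 7 tested genes, were lower in the Qk-KO libraries and none rose. The protein of Cldn10 forms ion-selective pores between cells, and that of Cldn2 forms a pore for small cations and water. Cldn10 fell 12.2-fold (95% interval 8.04 to 18.6), Cldn2 4.93-fold (1.78 to 13.6) and Tjp1 1.51-fold (1.26 to 1.82) in the authors' deposited table. Of 17503 genes tested in culture, 28.6% were called, 15.2% lower and 13.3% higher, so calls are common in this comparison. The same 3 members had an unadjusted p under 0.05, against 37.4% of all tested genes. All 7 tested values were negative, with a median of -0.88 (0.01 over all genes tested in culture). The 95% intervals of Cldn1, Cldn11, Cldn12 and Ocln included 0. Cldn14, with fitted counts of at most 3.18 in any library, has no adjusted p, and Cldn5 has no fold change.

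Cldn10 (ENSMUSG00000022132.15) lies on chromosome 14, from 118787908 to 118875489 on the plus strand of GRCm38, and has a pair of annotated start regions far apart. RefSeq (GRCm38.p6) gives the 300 bases around each of them, 250 before and 50 after the start, and both are shown because the deposited count joins the transcripts from either. Capitals mark GGGCGG, a box bound by SP1, TATAAA, the TATA box, and ACAAAG, a sequence bound by SOX and TCF proteins, on either strand.
Cldn10, upstream start, chr14:118787621-118787920, plus strand: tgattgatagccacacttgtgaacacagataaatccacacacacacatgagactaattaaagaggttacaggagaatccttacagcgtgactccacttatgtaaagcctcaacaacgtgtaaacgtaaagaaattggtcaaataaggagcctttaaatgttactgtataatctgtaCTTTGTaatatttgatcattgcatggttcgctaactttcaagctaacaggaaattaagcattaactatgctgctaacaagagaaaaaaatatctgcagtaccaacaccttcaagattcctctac
Cldn10, downstream start, chr14:118854700-118854999, plus strand: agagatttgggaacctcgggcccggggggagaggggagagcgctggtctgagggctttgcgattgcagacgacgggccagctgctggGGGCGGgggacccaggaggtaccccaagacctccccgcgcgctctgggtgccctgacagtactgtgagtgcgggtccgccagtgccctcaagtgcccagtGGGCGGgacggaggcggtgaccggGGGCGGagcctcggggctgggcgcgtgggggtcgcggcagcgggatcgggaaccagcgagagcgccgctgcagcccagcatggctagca
The upstream window has a GC content of 36% and 1 match, to ACAAAG on the other strand. The downstream window has a GC content of 72% and 3 matches, each to GGGCGG. Over 32817 promoter windows of the same length, 18.7% hold ACAAAG, 35.6% hold GGGCGG and 13.6% hold TATAAA on either strand. The tables cannot say from which start the lost RNA came.

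The 3 cultures labelled WT had fitted Cldn10 counts of 2226, 1745 and 1899, and those labelled Qk-KO had 190.3, 175 and 163 (replicates 1 to 3). As fitted values they follow the genotype by construction, so the gap between the groups is that of the model. The level went from 45.5 to 3.92 CPM, with a log2 change of -3.61 ± 0.31 (SE, 3 libraries per genotype, adjusted p = 2.84e-29) in the authors' deposited table. This error was larger than that of 98.2% of 1688 tested genes with a similar mean count (as defined below for Cldn2). The median error of those genes was 0.16. Astrocyte markers moved with Cldn10: 12 of 15 fell and none rose, their summed level went from 15225 to 4658 CPM, and their log2 changes ran from -3.57 to -0.25 with a median of -1.63. The change of Cldn10 was close to the lowest of these, that of Gjb6, a connexin gene named here after its value was known. Ependymal markers fell in 3 of 6 cases, with a median of -1.20 and a sum of 90.0 against 42.9 CPM. Neuron markers rose in 6 of 8 cases, with a median of 1.36 and a sum of 746 against 1743 CPM. The part of these cell types in the fall of Cldn10, and in the other culture changes, was not tested.

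Cldn2 (ENSMUSG00000047230.6, chromosome X, 139800828 to 139811386, plus strand, GRCm38) fell in both systems. Its RefSeq promoter window (GRCm38.p6) is shown with the same capitals, for its difference from both Cldn10 windows.
Cldn2, chrX:139800558-139800857, plus strand: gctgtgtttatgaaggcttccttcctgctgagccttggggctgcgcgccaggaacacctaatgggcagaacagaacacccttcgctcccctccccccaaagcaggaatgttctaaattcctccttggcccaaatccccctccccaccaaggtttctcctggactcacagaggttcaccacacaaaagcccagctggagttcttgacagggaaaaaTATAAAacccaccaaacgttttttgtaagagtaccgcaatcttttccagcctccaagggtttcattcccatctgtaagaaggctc
It holds 1 match, to TATAAA on the gene's own strand, and has a GC content of 51.3%, against a median of 52.7% over all windows. In culture the fitted counts of Cldn2 were 59.2, 46.4 and 50.5 in libraries labelled WT and 12.6, 11.6 and 10.8 in those labelled Qk-KO, so the call rests on few reads. The level went from 1.21 to 0.259 CPM, and the authors' deposited table gives a log2 change of -2.30 ± 0.75 (adjusted p = 0.0106). Its standard error was larger than that of 99.8% of 927 tested genes whose mean count differed from its own by at most 25% of the smaller, and their median error was 0.40. Choroid plexus markers summed to 22.3 CPM in cultures labelled WT and 21.9 CPM in those labelled Qk-KO. Otx2 made the largest part of the sum, with 12.9 and 10.2 CPM. Ttr, the transthyretin gene, had 0.175 and 0.252 CPM. Of the 8 markers tested in culture, 1 rose and 1, Otx2, fell.

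Tjp1 (ENSMUSG00000030516.14, chromosome 7, 65296165 to 65527781, minus strand, GRCm38) is the most abundant of the 9 genes in culture when length is left aside. Fitted counts were 16783, 13150.5 and 14316 in cultures labelled WT and 11613, 10704 and 9966 in those labelled Qk-KO. The level went from 343 to 239 CPM, and the authors' deposited table gives a log2 change of -0.60 ± 0.14 (adjusted p = 1.15e-04). Its standard error was larger than that of 39.9% of genes of a similar mean count. Small genes lie inside Tjp1, Gm44795 on the other strand and Gm44794 and Gm44792 on the same strand, and n-R5s51 lies inside Cldn10 on the other strand. With no stated strand setting, reads of the opposite-strand genes cannot be told apart from those of Tjp1 and Cldn10, and a strand setting would not separate the same-strand ones.

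The other 4 tested genes did not pass in culture. Cldn11 (ENSMUSG00000037625.7, chromosome 3, 31149920 to 31164324, plus strand) had 223 CPM in libraries labelled WT and 163 CPM in those labelled Qk-KO. Its log2 change was -0.53 ± 0.51 (adjusted p = 0.499, 95% interval -1.53 to 0.48) in the authors' deposited table. This error was larger than that of 99.3% of 461 genes with a similar mean count, where the median was 0.14. Of the 15 mature oligodendrocyte markers, 2 rose and 3 fell in culture, with a median log2 change of -0.52. Cldn12, a broadly expressed claudin, was measured more closely: 102 CPM against 95.1 CPM, with a log2 change of -0.18 ± 0.12 (adjusted p = 0.303, interval -0.42 to 0.06) in the authors' deposited table. Cldn1 and Ocln were low in culture. Cldn1 had 0.355 CPM against 0.204 CPM and a log2 change of -0.88 ± 0.64 (adjusted p = 0.336), and Ocln had 0.351 CPM against 0.198 CPM and -0.91 ± 0.62 (adjusted p = 0.296) in the authors' deposited table. Beside the absent Cldn5, the endothelial genes Cdh5 and Ly6c1, singled out for this, had no reads in culture either. The other 12 of the 14 endothelial markers had reads there. The 14 endothelial markers summed to 138 CPM in cultures labelled WT and 76.8 CPM in those labelled Qk-KO, and 4 of the 6 tested fell. Most of that sum came from Mfsd2a (73.7 against 40.8 CPM) and the glucose transporter gene Slc2a1 (54.5 against 29.3 CPM).

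With the score referred to a Student distribution with 4 degrees of freedom in place of the normal one, no gene of the culture table passed. The adjusted p was then 0.057 for Cldn10, 0.115 for Tjp1 and 0.183 for Cldn2. Scaling by library totals adds 0.08 to each log2 change in culture and turned the split of all calls from 2336 higher and 2667 lower to 3054 higher and 2296 lower, while the 3 genes still fell.

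**Figure D2:**
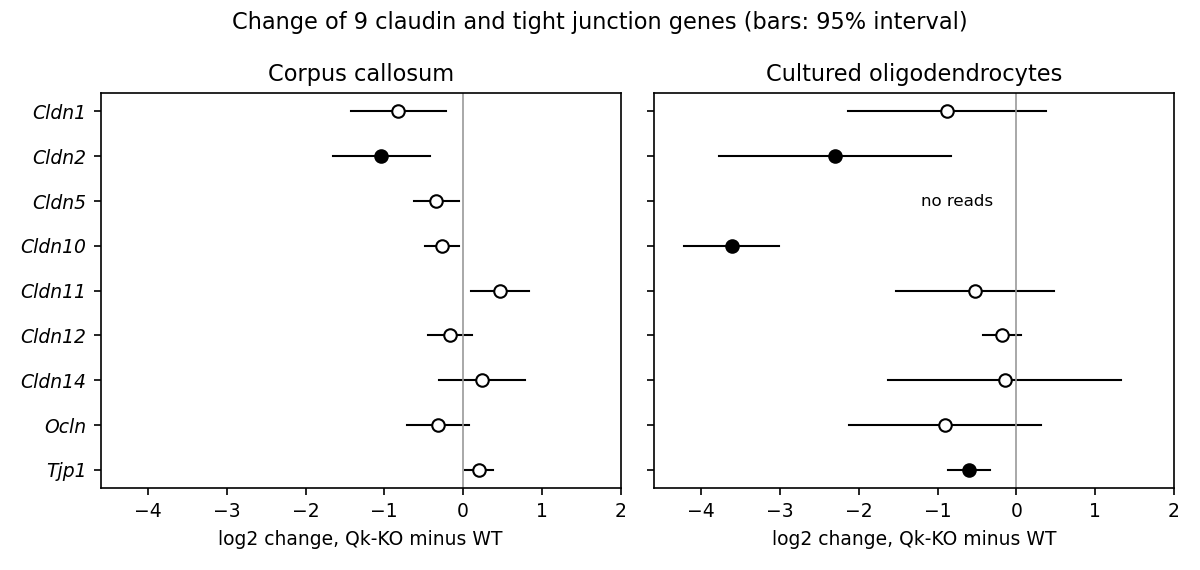
Log2 change (libraries labelled Qk-KO minus WT) of each of the 9 genes in callosum (left) and culture (right), with bars for the 95% interval from the deposited standard error and filled circles for an adjusted p under 0.05. In culture Cldn10, Cldn2 and Tjp1 are filled and lie below 0, and in callosum Cldn2 is the filled one.

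In the corpus callosum, Cldn2 fell 2.05-fold (95% interval 1.34 to 3.15) in libraries labelled Qk-KO in the authors' deposited table, and the other 8 genes did not pass. All 9 had an adjusted p, against a background of 2.32% of 19935 tested genes called with 0.231% called lower and 2.09% higher. An unadjusted p under 0.05 was found for 6 of the 9 genes, against 8.08% of all tested genes. These were Cldn1, Cldn2, Cldn5 and Cldn10, with lower values, and Cldn11 and Tjp1, with higher ones. The members were chosen with earlier results of these data known, so their share is not a test of the set.

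Fitted Cldn2 counts in callosum were 301, 338, 219 and 265 in libraries labelled WT and 131, 115, 110 and 91.2 in those labelled Qk-KO. The level went from 12.2 to 6.06 CPM, and the authors' deposited table gives a log2 change of -1.04 ± 0.32 (adjusted p = 0.0452). The call is close to the threshold: adjusted p was 0.0529 after scaling by library totals, 0.0732 when p-values were adjusted over all genes with a p-value, and 0.736 with a Student reference of 6 degrees of freedom. Cldn1 (ENSMUSG00000022512.2, chromosome 16, 26356642 to 26371841, minus strand, GRCm38), the other choroid plexus claudin here, had 7.52 CPM against 4.32 CPM and a log2 change of -0.82 ± 0.31 (adjusted p = 0.205) in the authors' deposited table. Both errors were larger than those of more than 90% of genes with a similar mean count (95.8% for Cldn2, 91.3% for Cldn1).

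Choroid plexus markers moved with these claudins. All 12 had negative log2 changes, from -1.03 to -0.51 with a median of -0.80, and their summed level went from 2108 to 1226 CPM. By the deposited test none of the 12 passed, and 11 had an unadjusted p under 0.05. Ttr had 1865 CPM against 1081 CPM and -0.81 ± 0.38, Kl, the klotho gene, had -0.86 ± 0.38, and the chloride channel gene Clic6 had -0.66 ± 0.28 in the authors' deposited table. Ependymal markers, from the lining of the ventricle next to the callosum, summed to 32.0 CPM in libraries labelled WT and 33.5 CPM in those labelled Qk-KO. The part of choroid plexus RNA in the fall of Cldn2 was not tested.

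**Figure D3:**
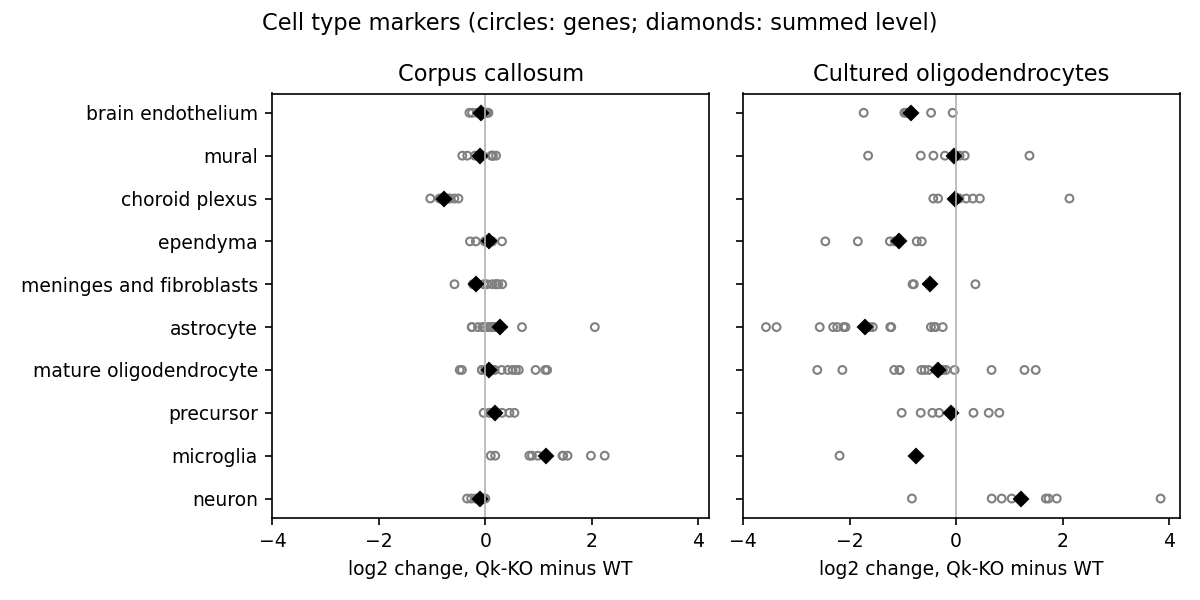
Log2 change (libraries labelled Qk-KO minus WT) of cell type markers with an adjusted p, in callosum (left) and culture (right), with a circle per gene and a diamond for the change of the list's summed fitted level. Choroid plexus markers lie between -1.03 and -0.51 in callosum, and astrocyte markers have a median of -1.63 in culture.

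Cldn11 was the abundant claudin of the tissue. Fitted counts were 6322, 7102, 4599 and 5568 in libraries labelled WT and 7828, 6876, 6554 and 5440 in those labelled Qk-KO, so fitted counts overlap between the groups where library sizes differ. Its level was 257 CPM against 362 CPM, with a log2 change of 0.47 ± 0.19 (adjusted p = 0.293, 95% interval 0.10 to 0.84) in the authors' deposited table. Of the 15 mature oligodendrocyte markers, 5 rose and none fell, with a median log2 change of 0.31 and a summed level of 8163 against 8579 CPM. Microglia markers moved most of the marker lists in this tissue: 9 of 11 rose, with a median log2 change of 1.11 and a sum of 446 against 984 CPM. The part of either cell type in the values of the 9 genes was not tested.

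Cldn5 (ENSMUSG00000041378.1, chromosome 16, 18776847 to 18778262, plus strand, GRCm38) had 26.4 CPM in callosum labelled WT and 21.2 CPM in callosum labelled Qk-KO. Its log2 change was -0.34 ± 0.14 (adjusted p = 0.381, interval -0.62 to -0.05) in the authors' deposited table. None of the 14 endothelial markers passed by the same test, 2 had an unadjusted p under 0.05, and their summed level was 401 against 381 CPM. Cldn10 had 29.2 CPM against 24.7 CPM and a log2 change of -0.27 ± 0.11 (adjusted p = 0.349, interval -0.49 to -0.05) in the authors' deposited table. Of the 15 astrocyte markers, 2 rose in callosum and none fell, with a median of 0.07.

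The remaining genes gave small values in tissue. Cldn12 (ENSMUSG00000046798.14, chromosome 5, 5489537 to 5514958, minus strand) had 53.5 CPM against 48.5 CPM and -0.17 ± 0.14 (adjusted p = 0.989) in the authors' deposited table. Cldn14 (ENSMUSG00000047109.12, chromosome 16, 93919031 to 94008837, minus strand), known from the tight junctions of the inner ear, had 1.46 CPM against 1.75 CPM and 0.24 ± 0.28 (adjusted p = 1.00) in the authors' deposited table. Ocln (ENSMUSG00000021638.12, chromosome 13, 100496507 to 100552718, minus strand) had 17.0 CPM against 13.9 CPM and -0.31 ± 0.20 (adjusted p = 0.858) in the authors' deposited table. Tjp1 had 152 CPM against 177 CPM and 0.20 ± 0.09 (adjusted p = 0.469, interval 0.02 to 0.37) in the authors' deposited table. Intervals of all 4 genes stay within a change of 1 log2 unit in either direction.

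The changes of Cldn10 and Tjp1 differed between the systems, by a z test on the log2 changes and their errors, adjusted over the 16601 genes tested in both tables, of which 21.5% passed. For Cldn10 the change in culture was lower than that in callosum by a log2 difference of -3.35 ± 0.33 (adjusted p of the z test = 6.5e-22, 95% interval -3.99 to -2.70). For Tjp1 the difference was -0.79 ± 0.16 (adjusted p of the z test = 2.25e-05), with 0.20 in callosum against -0.60 in culture. Cldn11 pointed in opposite directions, 0.47 against -0.53, but the difference of -0.996 ± 0.55 did not pass (adjusted p of the z test = 0.199). For Cldn2 the difference was -1.26 ± 0.81 (adjusted p of the z test = 0.293, interval -2.86 to 0.33). For Cldn12 it was -0.01 ± 0.19, and for Cldn1 and Ocln the intervals spanned more than 2 log2 units.

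Beyond these 9 genes, 75 other genes of claudins, junction membrane proteins, scaffolds and adherens junctions were found in the tables. In culture 7 of the 52 tested rose and 13 fell, with a median log2 change of 0.06 (0.01 over all tested genes). Of all genes tested in culture, 13.3% were called higher and 15.2% lower. In callosum 1 of 59 tested rose and none fell, with a median of -0.03 (-0.01 over all tested genes). There 5 of the 59 had an unadjusted p under 0.05. Of all genes tested in callosum, 2.32% were called and 8.08% had an unadjusted p under 0.05. These shares also stand beside the counts of the single lists below. Scaling by library totals turned the culture split to 8 higher and 11 lower.

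Scaffolds and adaptors made up most of the culture calls, with 6 higher and 7 lower of 28. Mpp5, the polarity scaffold PALS1, fell by 1.11 ± 0.12 log2 units (adjusted p = 1.46e-17), from 114 to 55.8 CPM, in the authors' deposited table. Mpdz, the multi-PDZ protein MUPP1, which binds claudin tails, fell by 0.82 ± 0.13, and Pard3b, a relative of the polarity protein PAR-3, fell by 0.94 ± 0.16 in the authors' deposited table. Amotl1 and Vapa, among the most abundant that did not pass, had -0.06 ± 0.14 and 0.10 ± 0.14 in the authors' deposited table. In callosum Mpp5 had 0.09 ± 0.08 in the authors' deposited table, and its difference between the systems passed (adjusted p of the z test = 3.22e-14). Prkcz, a polarity kinase and one of the most abundant in callosum that did not pass there, had 0.09 ± 0.16 in the authors' deposited table. In culture Prkcz rose by 1.06 ± 0.21 log2 units (adjusted p = 9.01e-06), from 37.8 to 83.1 CPM, in the authors' deposited table. Its difference between the systems passed too (adjusted p of the z test = 0.00277). Mpp5, Mpdz and Pard3b all fell in culture, whereas 6 of the 28 rose there.

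Among other junction membrane proteins, Jam2, a junctional adhesion molecule, fell in culture by 1.24 ± 0.15 log2 units (adjusted p = 1.31e-14), from 200 to 89.1 CPM, in the authors' deposited table. In callosum Jam2 had -0.23 ± 0.18 and carries no p-value in the authors' deposited table. The related Jam3 was the single call in callosum, with a rise of 0.51 ± 0.15 (adjusted p = 0.0387), from 51.9 to 75.1 CPM, in the authors' deposited table. Ildr2, one of the most abundant there, had -0.43 ± 0.23 in the authors' deposited table. Of 10 such genes tested in culture, 1 rose besides the fall of Jam2. This was Cxadr, the coxsackie and adenovirus receptor (0.99 ± 0.28, adjusted p = 0.00259 in the authors' deposited table), which was picked out once its value was known. Of the other claudins, 8 were tested in callosum and none passed, also at an unadjusted p under 0.05. In culture 5 were tested and 1 fell, the claudin-domain gene Cldnd1 (-0.75 ± 0.13 in the authors' deposited table), picked out in the same way.

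Adherens junction genes fell in 4 of 9 cases in culture and none rose. Pvrl3, the adhesion molecule nectin-3, fell by 1.04 ± 0.13, Ctnna1, alpha-catenin, by 0.79 ± 0.14 and Ctnnb1, beta-catenin, by 0.69 ± 0.11 on the log2 scale of the authors' deposited table. Jup, plakoglobin, fell by 0.49 ± 0.17 in the authors' deposited table and was picked out in the same way. The neural cadherin gene Cdh2, their membrane partner, had 0.08 ± 0.16 (300 against 334 CPM) in the authors' deposited table. In callosum none of 11 passed, 1 had an unadjusted p under 0.05, and the most abundant, Ctnnb1, had -0.14 ± 0.14 in the authors' deposited table.

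**Figure D4:**
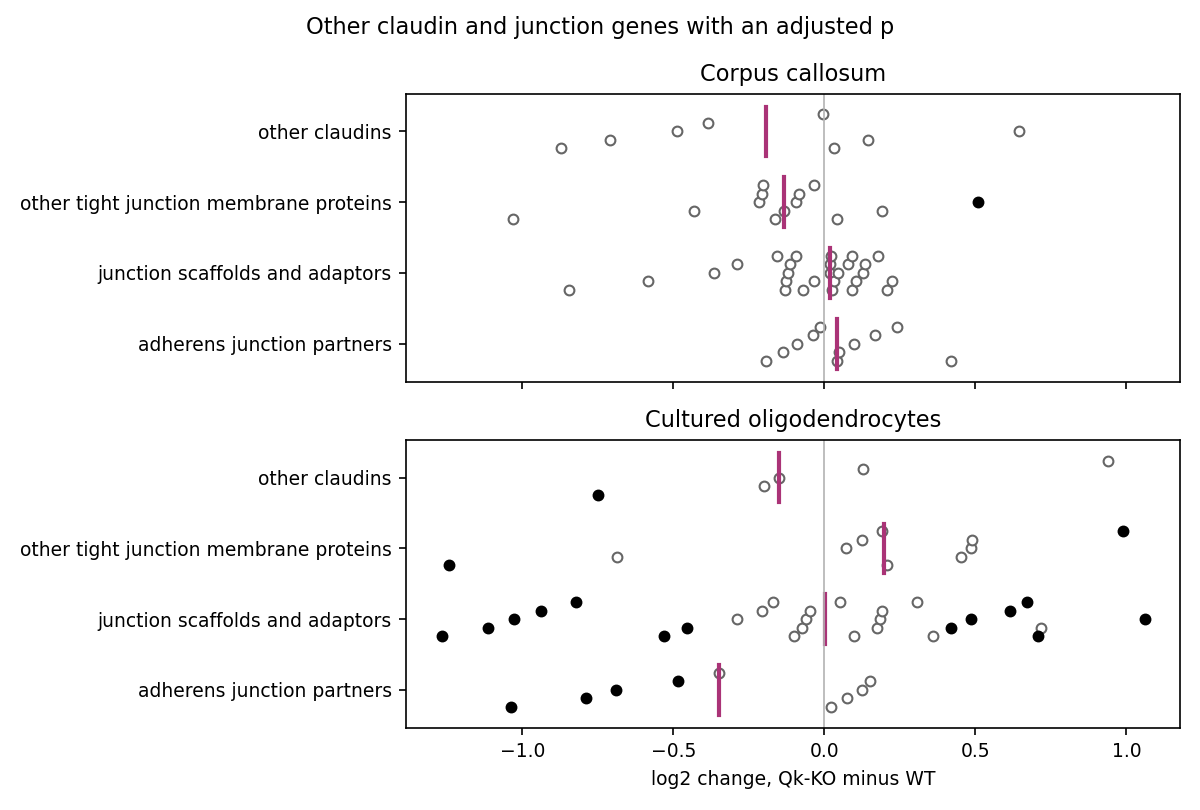
Log2 change (libraries labelled Qk-KO minus WT) of the other claudin and junction genes with an adjusted p, by list, in callosum (top) and culture (bottom). Filled circles passed an adjusted p under 0.05, upright bars mark list medians, and calls are 1 in callosum and 20 in culture.

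Quaking binds a core of ACTAAC or ACTAAT (written as DNA) with a half-site of TAAC or TAAT nearby, so the longest coding transcript of each gene in GENCODE vM21 (GRCm38) was searched on its own strand for a core with a half-site 1 to 20 bases away. Cldn12 and Tjp1 held such an element, and both are shown with core and half-site in capitals because these are the matches found in the members' transcripts. The coordinates are of GRCm38, and every site lies on the minus strand.
Cldn12, 3′ UTR, chr5:5507208-5507233, minus strand: TAATttcattctctctggggACTAAT
Cldn12, 3′ UTR, chr5:5506957-5506986, minus strand: TAACtacaaggcacacccaattacACTAAC
Cldn12, 3′ UTR, chr5:5505862-5505890, minus strand: ACTAATaatagtgttttccctttgtTAAT
Tjp1, coding sequence, chr7:65314237-65314255, minus strand: TAATgtcagtgtaACTAAT
Cldn12 had 3 elements and 5 cores in 3752 bases, where 19.2% of 4794 genes with transcripts within 20% of that length held an element. Tjp1 had 1 element and 2 cores in 7049 bases, where the share among 1943 genes was 32.9%. Cldn10 had 2 cores and no element, Cldn1, Cldn2 and Ocln had 1 core each, and Cldn5, Cldn11 and Cldn14 had neither. Over 21875 genes, 43.3% of such transcripts held a core and 16.1% an element. Introns were not searched, a match in letters is not a binding site, and the relation of elements to the changes was not tested.

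The genes whose pair of log2 changes lay nearest to those of the called members were sought among 10415 genes tested in both tables with at least 5 CPM in 1 genotype of each, by Euclidean distance over the 2 comparisons. For Cldn10 they were Ifit2 (distance 0.02) and Gjb6 (0.04), an interferon-induced gene and the connexin gene already named among the astrocyte markers. For Cldn2 they were Etnppl (0.24) and Arsg (0.29), and for Tjp1 they included Park2 (0.02).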

How the data were processed

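Per the submitters' processing notes, the authors used FastQC, TopHat2 2.0.14, featureCounts and DESeq2 with build mm10. Which annotation, strand setting and model they used is not given in the sources used here. The deposited library columns are log2 values, namely log2 of fitted mean counts plus 1. After scaling to library totals, libraries of a genotype differed by less than 1.1e-10 on the log2 scale, so no replicate spread can be had and no new test on libraries was run. The deposited mean column is, per the file headers, a normalized signal, in counts over size factors. The deposited score is the fold change over its standard error, and the deposited p-value columns hold the Wald p and its Benjamini-Hochberg adjusted value. Log2 changes were turned to Qk-KO minus WT. The deposited folds appear shrunken toward 0, so those of low genes may be understated. Fitted levels carry the same changes, so gaps in CPM between the genotypes, also of marker sums, share this limit. The z test between the systems compares changes that were fitted in each table on its own. The planned fit on counts was replaced by the deposited test.

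Fitted CPM, 95% intervals (normal) and the z test between the systems were computed with Python 3.11.15, pandas 2.3.3 and scipy 1.17.1, and the z test was tested on simulated data. Scaling by library totals shifts log2 changes by 0.02 in callosum and 0.08 in culture, which is why CPM ratios and deposited folds differ slightly. Exon lengths and coordinates are from GENCODE vM21 (GRCm38), where 46488 of the table's IDs were found and 6 of the 9 members have the same version. Promoters are from RefSeq, with all 9 members matched. The members, lists and rules were chosen with earlier results of these data known. Named genes follow a rule: all members; of the junction lists the called genes (at most 8 per table) and the 3 most abundant that did not pass; of marker lists at most the 3 most abundant; and the 2 nearest genes per called member. Alternatives were no filter on low counts, a mean count of at least 50, a Student reference, library totals and a threshold of 0.01. Some genes that the rule names are not reported here.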

Additional observations from a re-analysis of the deposited data

Results flagged for a closer look

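The change of Cldn10 differed between the systems by a test of the difference itself, with a log2 change in culture minus that in callosum of -3.35. The same held for Tjp1, with a difference of -0.79. In cultures labelled Qk-KO, astrocyte markers had a median log2 change of -1.63 beside the fall of Cldn10, against 0.07 in callosum, and their part in the difference was not tested. No library could be set against the others of its group, since the columns hold fitted means.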

How the results depend on the processing

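Of 101 values of single members under the alternatives, 93 stayed on their side of the threshold, 8 no longer passed, and no called value changed direction. The count of called members in callosum went from 1 to 0 with no filter on low counts, with the Student reference, with library totals and at an adjusted p under 0.01, and stayed at 1 with a mean count of at least 50. In culture it went from 3 to 0 with the Student reference (all genes: 5003 to 0; callosum: 463 to 8), and lay at 2 or 3 otherwise. Other junction genes called went from 1 to 0 in callosum without the filter, with the Student reference and at 0.01, and from 20 to 0 in culture with the Student reference. The 2 differences between the systems passed under each alternative run for them. With the Student reference their adjusted p was 3.51e-04 for Cldn10 and 0.013 for Tjp1. That reference had more degrees of freedom for the differences than for either system alone. The culture changes of both genes did not pass with the 4 degrees of freedom of culture (adjusted p 0.057 and 0.115). The pass of the differences is thus a less strict check. The labels pair the cultures by passage. No paired analysis was possible because the library columns hold fitted means without replicate spread, and for the same reason no replicate could be left out and no edgeR fit was run. Shallow counts limit Cldn1, Cldn14 and Ocln in culture.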
